A study of Mus musculus with 14 samples.

Results

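The aryl hydrocarbon receptor (AHR), its DNA-binding partner, its repressor and its best known target genes were followed in mouse heart ventricles as a sign of a response to a foreign compound. The genes were chosen by name: Ahr, Arnt, Ahrr, Tiparp, Cyp1a1 and Cyp1b1. All 6 of 6 listed genes were present among the 14161 gene entries used, and all 6 passed the filter on low values, a signal of at least 1 in at least 2 libraries, together with 14156 genes in all. At an adjusted limma p under 0.05, no gene was called in any of 6 comparisons, these 6 genes included. The smallest unadjusted p among them was for Cyp1b1, at 232.6 ± 58.3 (SD, n = 5) in GX mice given MRL5 against 140.5 ± 51.2 (SD, n = 4) in GX mice given DMSO. For the receptor, its partner and its repressor, no unadjusted p in any of the 6 comparisons was under 0.05.

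Polyadenylated RNA of ventricles from 14 male mice was sequenced 4 hours after 1 injection into the peritoneum. GX mice carried the genotype GX/GX, a change in the cardiac sodium channel NaV1.5 on both alleles, and received the solvent DMSO (n = 4) or MRL5 (n = 5). WT mice carried the genotype WT/WT and received DMSO (n = 3) or MRL5 (n = 2). MRL5 is a compound known only by its code name, which per the labels inhibits the changed channel. Whether MRL5 was dissolved in DMSO is not stated in the labels. The labels name a separate mouse for each library, and for age, strain background and dose nothing is given in the sources used here. The design text counts 4 GX mice with MRL5, the labels 5, and all 5 were used. Libraries are called by group and a number, as in GX MRL5 3, and equal numbers in different groups do not pair mice.

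The AHR is a transcription factor of the bHLH-PAS family that waits in the cytosol in a complex with the chaperone HSP90. Ligands such as dioxins, polycyclic hydrocarbons and products of tryptophan breakdown release it to the nucleus, where it pairs with ARNT and binds sites with the core letters GCGTG. Its targets include cytochromes P450 that oxidise the ligand and 2 brakes on the receptor itself, the repressor encoded by Ahrr and the mono-ADP-ribosyl transferase encoded by Tiparp. In most tissues Cyp1a1 is low until the receptor is activated, which makes it the usual marker of exposure, and in the heart its transcript is known mainly from endothelial cells.

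The promoters of the repressor and of the 3 target genes are shown because they carry the receptor's core letters next to the gene start. They are the 250 bases before the gene start in RefSeq on build GRCm38.p6, each 5′ to 3′ on the strand of its gene. Capitals mark GCGTG, or CACGC where the core lies on the other strand. The windows are chr13:74292332-74292581 on the minus strand for Ahrr, chr3:65528197-65528446 on the plus strand for Tiparp, chr9:57697363-57697612 on the plus strand for Cyp1a1 and chr17:79715062-79715311 on the minus strand for Cyp1b1.
Ahrr promoter: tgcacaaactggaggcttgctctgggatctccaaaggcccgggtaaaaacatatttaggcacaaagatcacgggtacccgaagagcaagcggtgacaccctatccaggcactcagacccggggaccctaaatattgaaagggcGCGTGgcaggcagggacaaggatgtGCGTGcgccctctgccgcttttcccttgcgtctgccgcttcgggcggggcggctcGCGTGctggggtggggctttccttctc
Tiparp promoter: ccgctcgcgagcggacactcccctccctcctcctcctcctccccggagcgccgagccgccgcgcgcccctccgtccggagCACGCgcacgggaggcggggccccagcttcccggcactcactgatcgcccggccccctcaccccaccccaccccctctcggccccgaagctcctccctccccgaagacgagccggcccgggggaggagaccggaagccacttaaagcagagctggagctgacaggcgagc
Cyp1a1 promoter: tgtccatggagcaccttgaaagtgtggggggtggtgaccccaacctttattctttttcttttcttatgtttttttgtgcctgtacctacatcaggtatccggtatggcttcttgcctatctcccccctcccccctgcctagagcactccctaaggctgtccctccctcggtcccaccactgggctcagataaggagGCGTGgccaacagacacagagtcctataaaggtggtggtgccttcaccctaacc
Cyp1b1 promoter: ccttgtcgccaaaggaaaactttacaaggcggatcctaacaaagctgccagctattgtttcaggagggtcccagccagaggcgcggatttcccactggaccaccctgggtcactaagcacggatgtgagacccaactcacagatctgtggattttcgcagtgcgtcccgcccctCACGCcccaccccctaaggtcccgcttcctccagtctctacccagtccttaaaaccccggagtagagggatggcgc

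Of the 6 genes, 5 matched a promoter entry, and all 5 windows held GCGTG on either strand, Arnt included. Over all 32851 promoters of the same length, 28.2% held these letters, and 37.9% of the 23315 promoters with at least 3 CpG, the lowest number among the 5 windows. That number is from Cyp1a1, while Arnt, Cyp1b1, Ahrr and Tiparp held 12, 12, 17 and 28 CpG. Shares among promoters as rich in CpG as these were not computed. The Ahrr window held 3 copies, which begin 107, 82 and 27 bases before the start. Of all promoters, whatever their CpG, 2.77% held 3 or more. The other 4 windows held 1 copy each, at 170 bases before the start in Tiparp, 76 in Cyp1b1, 54 in Cyp1a1 and 29 in Arnt. The longer form TNGCGTG was found in Ahrr, at the copy nearest to the start, and in no other of the 5 windows, against 4.1% of all promoters. ACGTG, the commoner core of the hypoxia-inducible factors that share ARNT with the receptor, was in none of the 5 windows and in 16.6% of all promoters. GCGTG is itself also a form of the hypoxia core, so the letters do not name 1 factor, and a match of letters is not a measured site. The Cyp1a1 window lies inside the GENCODE span of the gene, chr9:57687928-57703824. It stands before the RefSeq start and not before the GENCODE start. Sites farther upstream were not searched.

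**Figure D1:**
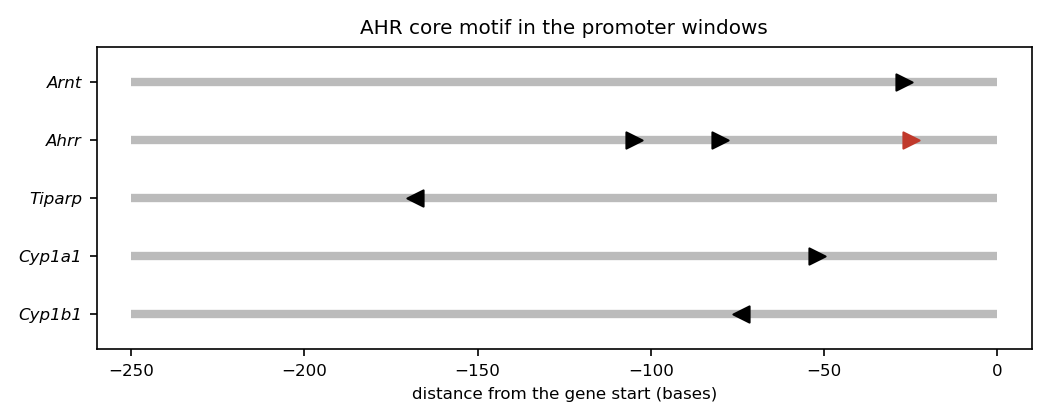
Positions of GCGTG in the promoter windows of 5 genes. Each grey bar is the 250 bases before a gene start (horizontal axis, distance in bases), an arrowhead is 1 match and points right where it lies on the strand of the gene and left where it lies on the other strand, and red marks the longer form TNGCGTG. Ahrr holds 3 matches and the other 4 genes hold 1 each.

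The signal of a gene is given in the table's own unit, scaled reads per base. The sources used here do not give how it was scaled, so levels are compared between libraries and not between genes. Column sums ran from 17244042 to 22163644. The labelled tissue was checked by its markers: all 6 cardiomyocyte markers were present, with a summed signal of 336276 to 426414 per library. WT DMSO 2 had the highest signal of Myl7, a light chain of atrial muscle (3967), followed by GX DMSO 3 (643) and then GX MRL5 4 (133), while the other 11 libraries had at most 20.7. By the library names, WT DMSO 2 and WT DMSO 3 share a set numbered 174 with GX MRL5 4, and the other 11 libraries form a set numbered 148. The change of NaV1.5 itself cannot be checked in values per gene.

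Ahr, the receptor (chr12:35497974-35535038, minus strand, a protein-coding gene in GENCODE M21 on GRCm38), was detected in every library. Its signal was 27.2, 44.2, 32.6 and 30.4 in GX DMSO 1 to 4. In GX MRL5 1 to 5 it was 23.8, 33.7, 38.6, 44.8 and 41.0. WT DMSO mice had 36.1, 29.5 and 34.8, and WT MRL5 mice 31.8 and 34.4. The 4 groups overlap throughout, with means between 33.1 and 36.4, and the lowest and the highest library are both GX mice given MRL5. The log2 difference of MRL5 against DMSO was 0.10 ± 0.20 (limma's SE; 95% interval -0.33 to 0.54) in GX and -0.01 ± 0.27 (-0.60 to 0.58) in WT.

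Arnt (chr3:95434388-95497240, plus strand), the partner that the receptor shares with the hypoxia-inducible factors, varied least of the 6 genes. GX DMSO mice had a signal of 508, 575, 631 and 491. GX MRL5 mice had 493, 527, 542, 459 and 545, WT DMSO mice 521, 485 and 493, and WT MRL5 mice 472 and 514. The highest of all 14 was 1.38 times the lowest. The residual SD within groups was 0.12 on the log2 scale, smaller than in most genes: 12.1% of 12862 genes with a mean signal of at least 10 had a smaller one. The log2 difference of MRL5 against DMSO was -0.10 (95% interval -0.28 to 0.09) in GX and -0.02 (-0.27 to 0.23) in WT, the narrowest intervals of the 6 genes.

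Ahrr (chr13:74211118-74292331, minus strand), the repressor that competes with the receptor for ARNT, lay close to the filter of 1. Its signal was 1.68, 3.52, 1.37 and 1.496 in GX DMSO mice and 1.13, 1.92, 2.43, 1.01 and 1.04 in GX MRL5 mice. It was 2.06, 0.618 and 1.96 in WT DMSO mice and 2.54 and 2.09 in WT MRL5 mice. Both WT MRL5 mice were above all 3 WT DMSO mice. Over all genes tested, 9.56% were higher without overlap in the same comparison, which sets 2 mice against 3. The log2 difference was 0.43 ± 0.54 (95% interval -0.72 to 1.59) in WT and -0.25 ± 0.40 (-1.10 to 0.60) in GX. Both intervals include 0.

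**Figure D2:**
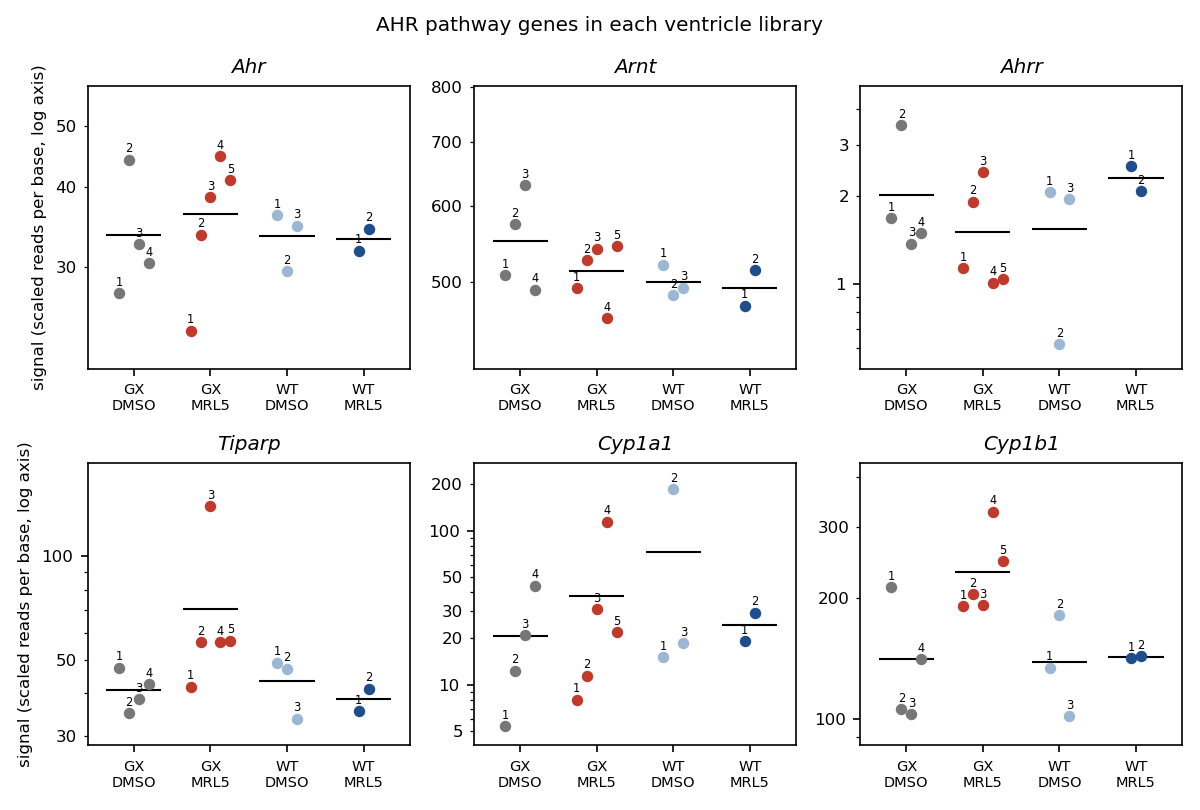
Signal of the 6 genes in each library. The vertical axis is the signal in scaled reads per base on a log axis that differs between panels, each point is 1 mouse labelled with its number in its group, and the bar is the group mean. All 6 genes overlap between GX DMSO and GX MRL5, and Tiparp is highest in GX MRL5 3 (140). Cyp1b1 lies between 191 and 328 in the GX mice given MRL5 and at 213 in GX DMSO 1.

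Cyp1b1 (chr17:79701537-79715061, minus strand) encodes a cytochrome P450 that oxidises polycyclic hydrocarbons, oestrogens and arachidonic acid, and is known from mesenchymal and vascular cells. GX DMSO mice had a signal of 213, 106, 103 and 141. GX MRL5 mice had 191, 205, 192, 328 and 247. The groups overlap through GX DMSO 1 alone, which lies above 3 of the 5 treated mice, and the other 3 GX DMSO mice lie below every treated GX mouse. WT DMSO mice had 134, 181 and 101, and WT MRL5 mice 141 and 143, inside the range of the WT DMSO mice. The log2 difference of MRL5 against DMSO in GX was 0.76 ± 0.23 (SE; 95% interval 0.27 to 1.24), a ratio of 1.69. It had an unadjusted limma p of 0.00478 and an adjusted p of 0.999. In WT it was 0.07 ± 0.31 (-0.59 to 0.74), and the mean of both genotypes was 0.42 ± 0.19 (0.01 to 0.82; unadjusted p = 0.0475, adjusted p = 0.998). In the authors' deposited table Cyp1b1 had p = 0.00543 and q = 0.9995 in GX, and p = 0.825 in WT. Without 1 library at a time, the GX difference of Cyp1b1 ran from 0.62 to 0.98, with unadjusted p between 0.000367 and 0.0211. Within set 148, which leaves out GX MRL5 4, it was 0.62 (unadjusted p = 0.0113). The summed signal of 6 fibroblast markers, all present, was 8602 to 12376 in GX DMSO and 9086 to 13370 in GX MRL5. That of 6 smooth muscle and pericyte markers, all present, was 9255 to 12554 and 9595 to 14435. Both ranges overlap between the groups. In GX, all 6 smooth muscle and pericyte markers had a positive log2 difference (median 0.11). Of the 6 fibroblast markers, 4 were positive and 2 negative in GX (median 0.05). In WT, 4 of the smooth muscle and pericyte markers (median 0.12) and 2 of the fibroblast markers (median -0.11) were positive. None had an unadjusted limma p under 0.05. Over all genes, 7296 differences were positive and 6860 negative in GX. The erythroid markers, 5 of 5 present, had a summed signal of 16314 to 23185 in GX DMSO. In GX MRL5 it was 18261 in the first mouse and 24878 to 38022 in the other 4, above every GX DMSO mouse. In WT it was 19597 to 37138 with DMSO, and 22664 and 24402 with MRL5. All 5 erythroid genes had a positive log2 difference in GX (median 0.47, 1 with an unadjusted p under 0.05) and a negative one in WT (median -0.17). The part of this in the Cyp1b1 values was not tested. In these whole ventricles, more cells of a type and more RNA per cell cannot be told apart.

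Tiparp (chr3:65528410-65555518, plus strand) encodes the enzyme that ADP-ribosylates the receptor and so limits its action. Its signal was 47.5, 34.9, 38.5 and 42.5 in GX DMSO mice. It was 41.8, 56.3, 140, 56.2 and 56.8 in GX MRL5 mice, so 4 of the 5 lie above every GX DMSO mouse and GX MRL5 1 lies among them. WT DMSO mice had 49.0, 47.1 and 33.7, and WT MRL5 mice 35.4 and 41.2. The log2 difference of MRL5 against DMSO in GX was 0.64 ± 0.27 (SE; 95% interval 0.06 to 1.22; unadjusted p = 0.0337, adjusted p = 0.999). Without GX MRL5 3 it was 0.36 (unadjusted p = 0.0624), and without any other single library it ran from 0.57 to 0.79. The unadjusted p of Tiparp was also over 0.05 without GX DMSO 2 (0.0831), GX DMSO 3 (0.0658) or GX DMSO 4 (0.0503). In WT it was -0.16 ± 0.37 (-0.95 to 0.64). The authors' deposited table gives Tiparp p = 0.0606 in GX.

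Early-stress genes were high in the libraries with high Tiparp. All 6 listed ones (Fos, Jun, Atf3, Egr1, Hspa1a and Hspa1b) were present. Their summed signal was 111097 in GX MRL5 3, where the stress factor Atf3 was at 6805 and the heat shock gene Hspa1a at 53385. Among the treated GX mice it was also above the range of the DMSO mice in number 2 (4391), number 4 (3419) and number 5 (5068), the mice with Tiparp between 56.2 and 56.8. In GX MRL5 1, the treated GX mouse with the lowest Tiparp, it was 2110, and in the other 3 groups it lay between 1920 and 2884. The part of this in the Tiparp values was not tested.

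Cyp1a1 (chr9:57687928-57703824, plus strand), the cytochrome P450 that serves as the standard marker of AHR activation, varied most of the 6 genes. GX DMSO mice had a signal of 5.38, 12.3, 21.1 and 44.1, and GX MRL5 mice 7.99, 11.4, 30.9, 115 and 21.97. WT DMSO mice had 15.2, 186 and 18.7, and WT MRL5 mice 19.1 and 29.4. The highest of the 14 libraries received DMSO, and it had 34.5 times the signal of the lowest. The residual SD within groups was 1.43 on the log2 scale, against a median of 0.22, and 99% of the 12862 genes compared had a smaller one. The log2 difference of MRL5 against DMSO was 0.54 ± 0.85 (SE; 95% interval -1.29 to 2.37) in GX and -0.66 ± 1.15 (-3.15 to 1.83) in WT. Without GX MRL5 4 the GX difference was -0.01, and without WT DMSO 2 the WT difference was 0.47. The GX interval for Cyp1a1 includes both a ratio below 1 and one several times above it, so neither is excluded by these values.

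Markers of other cell types were read beside the high Cyp1a1 libraries. The summed signal of 6 macrophage markers, all present, was highest in GX MRL5 4 (6054), WT DMSO 2 (5945) and GX DMSO 4 (5785). These 3 libraries had the highest Cyp1a1, and the sum was between 3477 and 4990 in the other 11. That of 6 fibroblast markers was highest in WT DMSO 2 (16045) and GX MRL5 4 (13370), and 11816 in GX DMSO 4. For 6 endothelial markers it was 11368 in WT DMSO 2, 13791 in GX MRL5 4 and 14229 in GX DMSO 4. The endothelial sum ran from 11268 to 14641 over all libraries. Of 4 atrial markers, 3 were present, and their summed signal was 26227 in WT DMSO 2 and between 796 and 6068 in the other 13 libraries. In GX MRL5 4 it was 2144, the lowest of the GX mice given MRL5, although Myl7 was the third highest there. Nppa, at 1746 to 5073 in the GX mice given MRL5, made up most of these sums. The sum therefore says little of the light chains Myl7 and Myl4. It was 6068 in GX DMSO 4, where Myl7 was at 0. GX DMSO 3, with the second highest Myl7, had Cyp1a1 at 21.1. The liver markers in the table, 2 of 5, went different ways. Cyp2e1 was highest in WT DMSO 2 (219) and GX MRL5 4 (116), and listed at 0 in 2 libraries. Ttr was at 4.46 and 3.32 in WT DMSO 2 and GX MRL5 4, and highest in GX DMSO 2 (48.6). WT DMSO 2 and GX MRL5 4 both belong to set 174, and the third library of that set, WT DMSO 3, had Cyp1a1 at 18.7. The part of cell makeup or library set in the Cyp1a1 values was not tested.

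**Figure D3:**
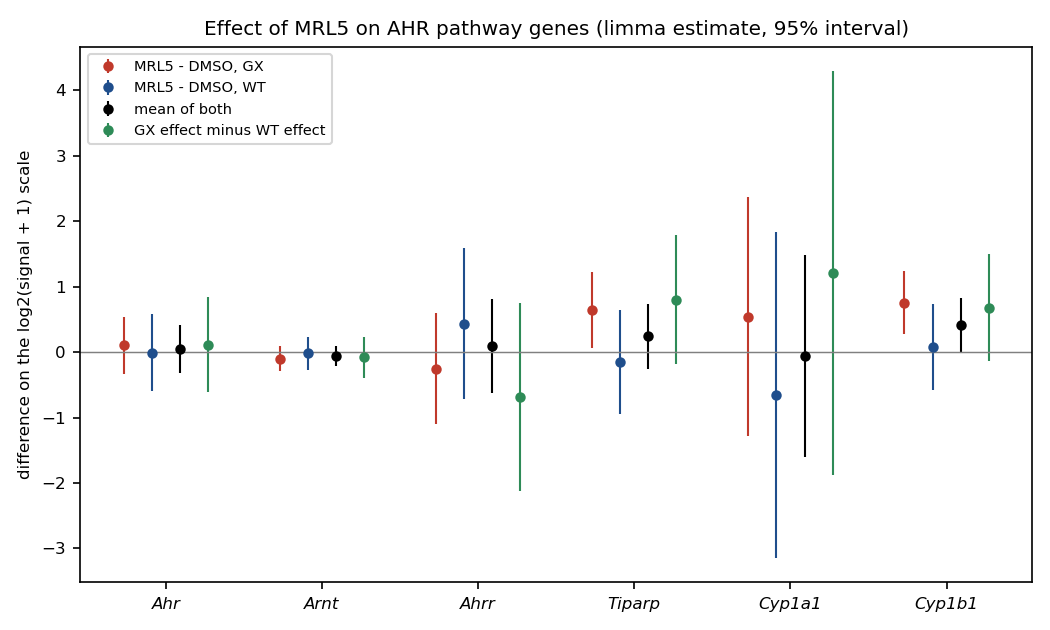
Differences by MRL5 for the 6 genes. The vertical axis is the difference on the log2(signal + 1) scale, points are limma estimates and bars their 95% intervals, for MRL5 against DMSO in GX, in WT, their mean, and the GX difference minus the WT difference. The GX intervals of Tiparp and Cyp1b1 and the mean for Cyp1b1 lie above 0 before adjustment, and the Cyp1a1 intervals are the widest.

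Read together, MRL5 against DMSO in GX gave an unadjusted p under 0.05 for 2 of the 6 genes, Cyp1b1 and Tiparp, both with positive differences. Over all genes tested, 4.13% reached this, 2.71% with a positive difference. With an adjusted p under 0.05, 0 of the 6 and 0 of 14156 genes were called by limma, and the smallest adjusted p of any gene was 0.974. With 1 library left out, at most 2 genes were called in GX (without GX DMSO 1) and at most 58 in WT (without WT MRL5 2, which leaves 1 WT mouse with MRL5), and none of the 6 was among them. In WT, none of the 6 had an unadjusted p under 0.05, against 5.64% of all genes. Averaged over genotypes, 1 of the 6 had, Cyp1b1, against 3.33% of all genes, or 1.6% with a positive difference. The median difference of the 6 genes was 0.32 in GX, -0.02 in WT and 0.07 for the mean, beside 0.0055, -0.0015 and 0.0069 over all genes.

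**Figure D4:**
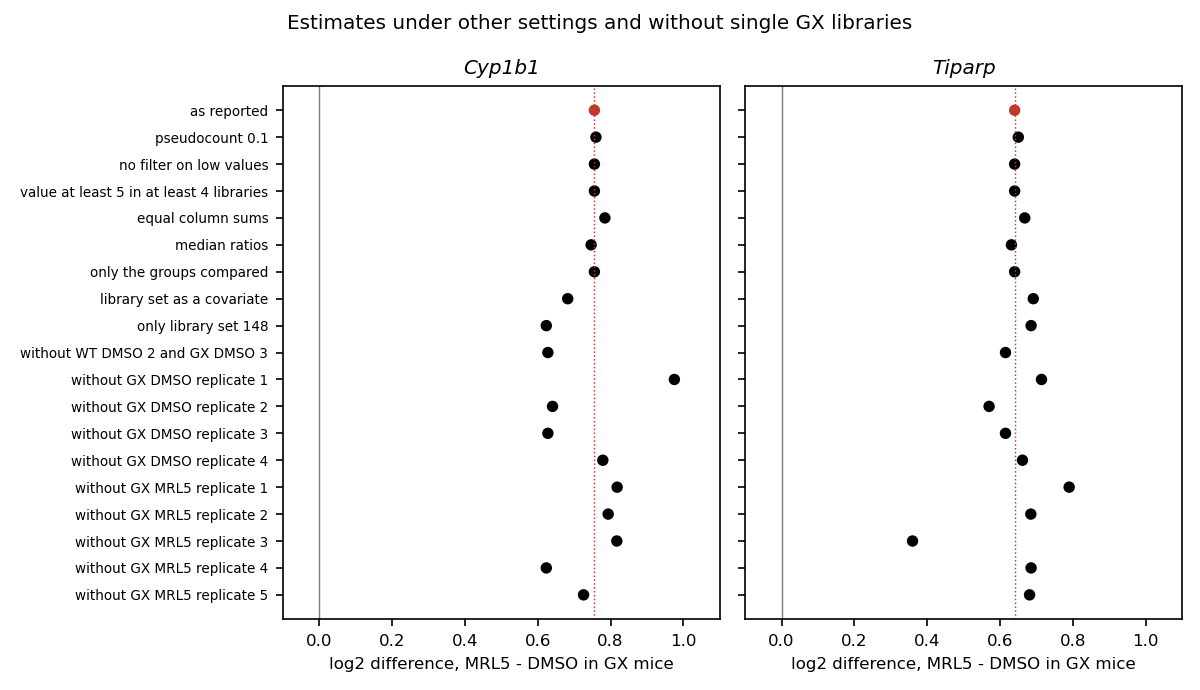
Log2 difference of MRL5 against DMSO in GX mice for Cyp1b1 and Tiparp under other settings. Each black point is the estimate under the setting named on the vertical axis, the red point and dotted line are the reported value, and the grey line is 0. Cyp1b1 stays between 0.62 and 0.98, and Tiparp falls to 0.36 without GX MRL5 3.

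Whether the difference by MRL5 depended on genotype was tested by the interaction, the GX difference minus the WT difference. It was 0.68 ± 0.38 (SE; 95% interval -0.14 to 1.501; unadjusted p = 0.0967, adjusted p = 0.755) for Cyp1b1 and 0.80 ± 0.46 (-0.19 to 1.78; unadjusted p = 0.105, adjusted p = 0.755) for Tiparp. Cyp1a1 had 1.20 ± 1.43, Ahrr -0.69 ± 0.67, Ahr 0.11 ± 0.34 and Arnt -0.08 ± 0.15. The Cyp1a1 interaction was 0.073 without WT DMSO 2, -0.86 with the library set as a covariate and -0.62 within set 148. Within set 148, WT DMSO 1 is the only WT DMSO mouse left. Set 174 holds both WT DMSO 2 and GX MRL5 4, so library set and single mice cannot be told apart. None of the 6 passed, and no unadjusted p was under 0.05, against 6.39% of all genes. The intervals of Cyp1b1 and Tiparp lay above 0 in GX and not in WT, and the test of that difference itself did not pass.

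Genotypes were also compared under each treatment. Every GX MRL5 mouse was above both WT MRL5 mice in Cyp1b1 and in Tiparp. Over all genes, 4.76% were higher without overlap in this comparison of 5 mice with 2. Of the 6 genes, 1 had an unadjusted p under 0.05, against 6.58% of all genes. The log2 difference of GX against WT under MRL5 was 0.67 ± 0.28 (SE; 95% interval 0.07 to 1.28; unadjusted p = 0.0314, adjusted p = 0.721) for Cyp1b1. For Tiparp it was 0.72 ± 0.34 (-0.0031 to 1.45; unadjusted p = 0.0509, adjusted p = 0.757), and 0.44 without GX MRL5 3. These values share the GX MRL5 mice with the comparison of MRL5 against DMSO in GX and are not independent of it. Under DMSO, GX against WT was -0.01 ± 0.26 for Cyp1b1, -0.07 ± 0.31 for Tiparp, -0.01 ± 0.23 for Ahr, 0.13 ± 0.10 for Arnt and 0.25 ± 0.45 for Ahrr. Cyp1a1 was -1.20 ± 0.96 under DMSO and -0.07 without WT DMSO 2. None of the 6 had an unadjusted p under 0.05 under DMSO, against 5.67% of all genes.

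The 6 genes form 15 pairs, whose correlation of log2 signals over the 14 libraries was tested by permutation. The permutations exchanged all libraries without regard to group. Their p-values therefore do not separate a shared difference between groups from a correlation among mice of a group. No pair passed by Pearson's r, which ran from -0.52 to 0.52, with a smallest adjusted p of 0.297. By Spearman's rho 1 pair passed, Tiparp with Cyp1b1 (rho = 0.776, p = 0.00164, adjusted p = 0.0246 over the 15 pairs). Its Pearson's r was 0.524 (p = 0.0507), and 0.809 without GX MRL5 3 and WT DMSO 3, the 2 libraries farthest from the median of Tiparp. Within set 148 (11 libraries) r was 0.512. The deviations from the group means correlated at 0.135, lower than over all libraries. For Ahr with Tiparp, Cyp1a1 and Cyp1b1, r was 0.26, 0.273 and 0.083.

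The genes whose log2 signal was most like each of the 6 over the 14 libraries, among at least 12265 with a mean signal of at least 10, are given as a description. For Tiparp they were Smad1, a signal carrier of bone morphogenetic proteins (r = 0.952), Plscr1, an interferon-inducible scramblase (0.947), and Ptgs2, the inducible cyclooxygenase (0.941). Without GX MRL5 3 and WT DMSO 3 these fell to 0.755, 0.803 and 0.772. For Cyp1b1 they were the kinase Pak6 (0.858), the ascorbate-linked reductase Cyb561 (0.85) and Irak3, a brake on Toll-like receptor signalling (0.836). Without GX MRL5 4 and WT DMSO 3 these had 0.758, 0.728 and 0.725. For Cyp1a1 they included the antibody receptor Fcgr3 (0.93) and Tmem35a, a chaperone of acetylcholine receptors (0.884), and these had 0.774 and 0.686 without WT DMSO 2 and GX MRL5 4. For Ahr they were Rap2c, Coa5 and Tubgcp4 (0.865 to 0.886), and for Ahrr Alkbh5, Ylpm1 and Cpox (0.832 to 0.844). For Arnt they included Elk4 (0.868) and Nedd9 (0.82). Without the 2 libraries farthest from the median of each gene, they had 0.719 to 0.867 for Ahr and 0.705 to 0.78 for Ahrr. For Arnt, Elk4 then had 0.811 and Nedd9 0.66. All are correlations over the same libraries, which share group differences and library sets.

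Further genes of the pathway were read from 6 lists. In none of them did a gene pass in any of the 6 comparisons. Of 20 further AHR targets, 15 were in the table, and in the averaged comparison of MRL5 with DMSO their median difference was -0.01 on the log2 scale, with 7 positive and 8 negative, against 0.01 over all genes. In GX their median was 0.20, with 12 positive and 3 negative and none with an unadjusted p under 0.05, beside a median of 0.0055, 7296 positive and 6860 negative differences and 4.13% with such a p over all genes. In WT their median was -0.03, with 7 positive and 8 negative and 1 with an unadjusted p under 0.05, which was lower with MRL5, beside a median of -0.0015 and 5.64% over all genes. The 2 with the smallest p in the averaged comparison were Cyp2s1 and Ugt1a7c, and they are named for that p. Only these 2 of the 15 had an unadjusted p under 0.05 there. Over all genes it was 3.33%, or 1.6% with a positive difference.

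Cyp2s1 (chr7:25802475-25816913, minus strand) encodes a dioxin-inducible cytochrome P450 of epithelia. Its signal was 8.60, 40.7 and 8.61 in WT DMSO mice and 58.9 and 66.2 in WT MRL5 mice, which do not overlap, as for 9.56% of all genes in that direction. It was 6.87, 54.6, 16.5 and 2.22 in GX DMSO mice and 8.55, 46.9, 30.7, 82.8 and 14.4 in GX MRL5 mice, which overlap. The averaged log2 difference of Cyp2s1 was 1.60 ± 0.67 (SE; 95% interval 0.15 to 3.05; unadjusted p = 0.0331, adjusted p = 0.998). In the authors' deposited table Cyp2s1 had p = 0.0291 and q = 0.9986 in WT, and p = 0.23 and q = 0.9995 in GX. By limma, its unadjusted p was not under 0.05 in WT or in GX.

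Ugt1a7c (chr1:88095062-88220002, plus strand) encodes a glucuronosyl transferase that conjugates oxidised compounds. Its signal was 9.55, 21.5 and 5.12 in WT DMSO mice against 22.7 and 26.4 in WT MRL5 mice, again without overlap. GX DMSO mice had 18.7, 16.6, 6.96 and 10.6, and GX MRL5 mice 21.0, 35.4, 14.0, 35.3 and 8.53. The averaged log2 difference was 0.91 ± 0.38 (0.09 to 1.74; unadjusted p = 0.0319, adjusted p = 0.998). The authors' deposited table gives Ugt1a7c p = 0.105 in WT and p = 0.214 in GX. Its unadjusted limma p was not under 0.05 in either genotype. Ugt1a7c shares its last exons with the other genes of the Ugt1a locus, so how reads were divided among them is uncertain. The promoter windows of Cyp2s1 and Ugt1a7c held no GCGTG.

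**Figure D5:**
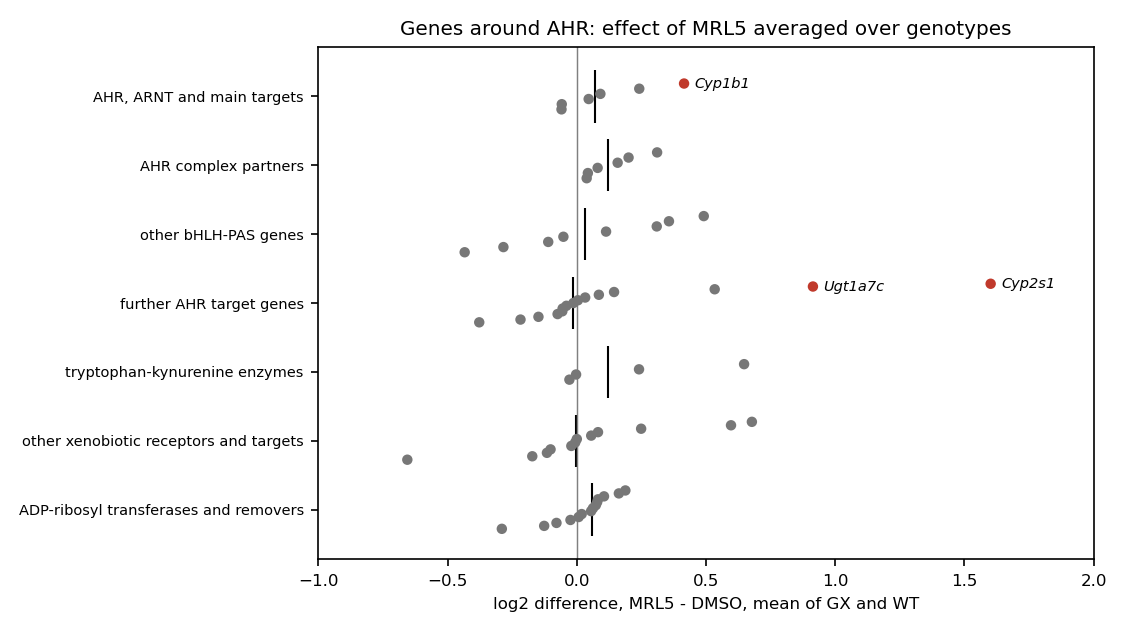
Averaged difference by MRL5 for genes around the receptor. The horizontal axis is the log2 difference of MRL5 against DMSO, mean of GX and WT, each point is a gene, the black bar is the median of its list, and red marks an unadjusted p under 0.05. Cyp2s1 (1.60), Ugt1a7c (0.91) and Cyp1b1 (0.42) are red, and no gene passed after adjustment. Over all genes tested, 3.33% had such an unadjusted p, 1.6% with a positive difference.

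Over all genes, the averaged comparison had a median of 0.0069, with 7376 positive and 6780 negative differences. In the other lists the genes with the smallest p in the averaged comparison were these. Of 6 partners in the receptor's cytosolic complex, all present, all 6 had positive differences with a median of 0.12, and the chaperone Hsp90ab1 had 0.16 and the kinase Src 0.20. Of 13 other bHLH-PAS genes, 8 were present with a median of 0.03, and the clock factor Arntl had 0.36 and Npas1 -0.43. Of 11 enzymes of the tryptophan-kynurenine route, which makes ligands of the receptor, 4 were present with a median of 0.12, and Kmo had 0.65 and Afmid 0.24. Of 20 receptors and targets of other xenobiotic responses, 12 were present with a median of -0.003, and the carboxylesterase Ces1d had -0.17 and the cytochrome P450 Cyp3a13 -0.66. Of 14 ADP-ribosyl transferases and removers related to Tiparp, all present, the median was 0.06, and Parp11 had -0.29 and Macrod2 -0.13. All had an adjusted limma p of 0.998.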

How the data were processed

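Per the labels, paired-end libraries of polyadenylated ventricle RNA came from 14 male mice. kallisto (quantification), sleuth 0.3.0 (comparison) and build GRCm38 are named by the submitters' processing notes. Aligner settings, annotation release and read totals are not given in the sources used here, so depth is unknown and no counting interval is given. The deposited signal is named scaled reads per base, per the file headers, and is not a count. The deposited table also holds the authors' p-values, q-values and effects, which on comparison with the signals were differences on the natural log scale.

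Of 14307 entries, 146 with values identical to another entry were left out, and 21 symbols that had become dates were restored. All 14 library columns were matched to mice by library name. limma 3.58.1 in R 4.3.3 was fitted on log2(signal + 1), which understates changes at low signal, with trend and robust variances, 4 group means, no covariate and 10 residual degrees of freedom. Tests were two-sided, p-values were adjusted by Benjamini-Hochberg over all 14156 genes, and 0.05 was the threshold. Correlations used 100000 permutations (Python 3.11.15, scipy 1.17.1). The fit was tested on simulated data. Promoter sequences are RefSeq's and positions GENCODE M21's.

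The 6 genes, the gene lists and the markers were chosen with earlier results of these data known. Named beside the 6 were, of each list, the 2 genes with the smallest p in the averaged comparison, and for each of the 6 the 3 genes with the highest r, predicted genes left out. Some single genes that this rule names are not reported here. Alternatives were another pseudocount, filters, scalings, the library set, only the groups compared and each library left out.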

Additional observations from a re-analysis of the deposited data

Results flagged for a closer look

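Among the 12 combinations of the 6 genes with the GX groups of 4 and 5 mice, 3 held a mouse far from the others of its group, by the gap to the nearest mouse against the range of the group. For normally distributed values, chance alone gives about 1 in 20 groups. The check used the signal itself and not the log2 scale of the fits, so skewed values can be flagged more often than this. Ahrr was at 3.52 in GX DMSO 2, and between 1.37 and 1.68 in the other 3 GX DMSO mice. Tiparp was at 140.0 in GX MRL5 3, and between 41.8 and 56.8 in the other 4 GX MRL5 mice. Early-stress genes were highest in the same library. Cyp1a1 was at 114.8 in GX MRL5 4, and between 7.99 and 30.9 in the other 4 GX MRL5 mice.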

How the results depend on the processing

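Over 23 alternatives the estimates of the 6 genes were recomputed 810 times. None reached an adjusted p under 0.05, and 61 changed sign, 28 of them with 1 library left out. Many of the 810 could not change. Leaving out a mouse of a group that a comparison does not use returns the same estimate. The changed filters and the fit of only the groups compared also leave it the same. The share of sign changes is therefore not a measure of stability. The values of Cyp1b1 and Tiparp in GX kept their direction throughout. No paired analysis was possible because the labels give no replicate numbers or other pairing of the mice. The precision is limited by 2 WT mice with MRL5, and depth is unknown. Fitting only the groups compared gives no value for the averaged and interaction comparisons, and the stricter filter leaves out Ahrr. The cause of the changes below was not tested.

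The count of genes called was 0 in each comparison. It was 1 for the interaction with equal column sums and 1 for GX against WT under MRL5 with only the groups compared. With 1 library left out it ran from 0 to 2 for MRL5 in GX, 0 to 58 for MRL5 in WT, 0 to 6 for the average, 0 to 1 for GX against WT under DMSO, 0 to 63 for GX against WT under MRL5 and 0 to 27 for the interaction. The highest counts of the last 2, of MRL5 in WT and of the average came without WT MRL5 2, which leaves 1 WT MRL5 mouse whose spread is taken to equal that of the other groups. The 2 genes in GX came without GX DMSO 1, and the 1 in GX against WT under DMSO without GX MRL5 4. Equal column sums moved the median of all genes in GX against WT under DMSO from -0.02 to -0.11.

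With 1 library left out, log2 differences that changed sign ran as follows. For MRL5 in GX, Cyp1a1 ran from -0.012 to 1.01. For MRL5 in WT, Ahr ran from -0.097 to 0.045, Arnt from -0.081 to 0.042, Cyp1a1 from -1.30 to 0.47 and Cyp1b1 from -0.13 to 0.28. For the average, Ahrr ran from -0.058 to 0.20 and Cyp1a1 from -0.38 to 0.51. For GX against WT under DMSO, Ahr ran from -0.15 to 0.077, Ahrr from -0.049 to 0.41, Cyp1b1 from -0.23 to 0.20 and Tiparp from -0.24 to 0.025. Under MRL5, Arnt ran from -0.0062 to 0.12 and Cyp1a1 from -0.55 to 0.37.

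In GX against WT under MRL5, Cyp1a1 was -0.012 with a pseudocount of 0.1 and -0.032 with equal column sums. Under DMSO, Cyp1b1 was 0.0032 with median ratios. With the library set as a covariate, MRL5 in WT was 0.085 for Ahr and 0.93 for Cyp1a1, and the average -0.0054 for Ahrr and 0.50 for Cyp1a1. GX against WT under DMSO was then 0.083 for Ahr, -0.027 for Ahrr, 0.39 for Cyp1a1 and 0.24 for Cyp1b1, and under MRL5 -0.47 for Cyp1a1. The interaction was -0.0101 for Ahr, 0.051 for Arnt and -0.86 for Cyp1a1. With only set 148, WT DMSO 1 was the only WT DMSO mouse left, so every value that uses this group rests on it. Cyp1a1 was then -0.012 for MRL5 in GX, 0.61 in WT and 0.30 for the average. It was 0.076 for GX against WT under DMSO, -0.55 under MRL5 and -0.62 for the interaction. In the same set the average was -0.0505 for Ahr and -0.035 for Ahrr, GX against WT under DMSO -0.074 for Ahrr and 0.0029 for Cyp1b1, and the interaction 0.022 for Arnt. Without WT DMSO 2 and GX DMSO 3, which had the highest Myl7 and were left out after the data were seen, MRL5 in WT was 0.47 for Cyp1a1. The average was then -0.00054 for Ahr, -0.11 for Ahrr and 0.57 for Cyp1a1. GX against WT under DMSO was 0.022 for Tiparp and 0.33 for Cyp1b1, and the interaction 0.0092 for Arnt.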
